A study of Mus musculus with 12 samples.

Results

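The chemokine and chemokine receptor families were examined in mouse brain after ischemia-reperfusion (I/R) injury, as 46 genes taken by symbol from the 39756 genes of the count table. The ligands were 13 inflammatory CC chemokines, 3 homeostatic CC chemokines, 5 CXC chemokines with the ELR motif, 3 interferon-inducible CXC chemokines, 4 other CXC chemokines and 2 membrane-bound chemokines. The receptors were 6 of the CC class, 6 of the CXC and CX3C classes, and 4 atypical receptors. Poly(A) RNA was sequenced from brain of male C57BL/6J mice, 9 to 10 weeks old, with 4 mice in each of 3 groups. Sham mice had sham surgery and received saline on the same schedule. Vehicle mice underwent transient occlusion of the left middle cerebral artery with a filament for 45 min followed by reperfusion, and received saline. LJP mice underwent the same occlusion and were given Laminaria japonica polysaccharide, a brown-alga polysaccharide, into the stomach each day from 14 days before surgery and afterwards. The study tried several LJP doses and chose the middle one for its later experiments, but no source used here names the dose for the sequenced mice or the interval between their occlusion and sampling. RNA came from the ischemic hemisphere, a name the labels also give to the Sham samples, and all samples were labelled as 1 batch and numbered 1 to 4 within a group, and these numbers are used as names below (Vehicle 1 is the first mouse of that group). No source says that a mouse gave more than 1 sample, and the p-values measure the spread between these samples.

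Chemokines are small secreted proteins that draw leukocytes along a concentration gradient. They bind G protein-coupled receptors on the responding cell, whereas the atypical receptors bind and remove ligand without G protein signaling. In the brain, microglia, astrocytes, endothelium and infiltrating myeloid cells can all release CC and CXC chemokines after injury. Neurons instead make fractalkine, encoded by Cx3cl1, whose only known receptor, Cx3cr1, marks microglia.

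Many of these genes lie beside each other, and the ELR chemokine genes are known targets of NF-kappa B. In the deposited table, Cxcl5, Ppbp, Pf4, Cxcl3, Cxcl1 and Cxcl2 lay in this order from chr5:90759298-90761625 (Cxcl5) to chr5:90903899-90905938 (Cxcl2), and Cxcl9, Cxcl10 and Cxcl11 followed between chr5:92321331-92328079 and chr5:92359544-92363296. On chromosome 11, Ccl2, Ccl7, Ccl11, Ccl12 and Ccl8 lay from chr11:82035577-82037452 to chr11:82115185-82116799, and Ccl5, Ccl9, Ccl6, Ccl3 and Ccl4 followed up to chr11:83648624-83664683. These positions equal those of RefSeq on the build GRCm38.p6. The 250 bases before the transcription start are shown for Cxcl1, Cxcl2 and Cxcl3, the 3 ELR chemokines with the highest mean CPM per kilobase in Vehicle (CPM is defined below), and for Cxcl10, the interferon-inducible member that was high in both ischemic groups. Sequences are from RefSeq, read 5′ to 3′ on the strand of the gene, and capitals mark matches to the NF-kappa B consensus, to the interferon response core (GAAA, any 2 bases, GAAA) or to the AP-1 site (TGANTCA).
Cxcl1, chr5:90890995-90891244, plus strand: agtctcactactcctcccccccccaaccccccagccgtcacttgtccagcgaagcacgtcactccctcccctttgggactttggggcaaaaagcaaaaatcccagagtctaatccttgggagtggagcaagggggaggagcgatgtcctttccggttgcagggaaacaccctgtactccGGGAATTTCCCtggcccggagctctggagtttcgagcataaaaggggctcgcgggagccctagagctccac
Cxcl2, chr5:90903649-90903898, plus strand: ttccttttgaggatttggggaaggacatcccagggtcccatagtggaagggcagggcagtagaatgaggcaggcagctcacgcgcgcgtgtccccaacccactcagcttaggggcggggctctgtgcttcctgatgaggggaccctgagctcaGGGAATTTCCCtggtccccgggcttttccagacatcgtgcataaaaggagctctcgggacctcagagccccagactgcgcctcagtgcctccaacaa
Cxcl3, chr5:90785851-90786100, plus strand: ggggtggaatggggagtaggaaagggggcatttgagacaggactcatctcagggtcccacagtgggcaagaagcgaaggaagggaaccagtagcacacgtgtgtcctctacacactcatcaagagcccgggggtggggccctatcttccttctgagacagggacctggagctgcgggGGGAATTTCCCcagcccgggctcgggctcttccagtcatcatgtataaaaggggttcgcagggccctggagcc
Cxcl10, chr5:92348890-92349139, minus strand: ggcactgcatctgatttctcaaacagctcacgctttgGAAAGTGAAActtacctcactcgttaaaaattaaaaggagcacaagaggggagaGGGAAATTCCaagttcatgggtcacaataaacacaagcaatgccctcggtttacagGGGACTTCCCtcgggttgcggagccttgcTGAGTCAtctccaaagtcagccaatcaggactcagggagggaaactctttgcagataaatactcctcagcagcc
In Cxcl1, Cxcl2 and Cxcl3 the capitals are matches to the NF-kappa B consensus on both strands that overlap each other, starting 71, 97 and 73 bases before the start. The Cxcl10 window held an interferon response core 213 bases before the start, NF-kappa B matches 159 and 103 bases before it, and an AP-1 match 74 bases before it. RefSeq windows were found for 35 of the 46 members. Searched on both strands, the NF-kappa B consensus was present before 9 of these 35 genes, or 25.7%, against 4.46% of 27025 genes with a window of this length. The interferon core was present before 3 members, or 8.57%, against 3.46% of all genes, and the AP-1 site before 4 members, or 11.4%, against 7.82%. AP-1 sites read alike on both strands and were counted once. A match describes letters in the window and not binding of a factor.

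Between 17960353 and 22216315 reads were counted per mouse. Levels are given in CPM, the count divided by the scaled library size in units of 1000000 reads, on which 1 count was worth 0.043 to 0.0577. Of the 39756 genes, 17558 passed the low-count filter and were tested, 29 members among them. Vehicle 1 and Vehicle 2 lay apart from the other mice over the genes that are not members, at 68.7 and 112.9 on the first principal component (60.2% of the variance), against 13.6 and 27.2 for Vehicle 3 and Vehicle 4. Sham mice lay between −56.2 and −51.3 and LJP mice between −15 and 20.5, and the nearest mouse to Vehicle 3 was LJP 3. Markers of other cells moved with this split. The summed CPM of 8 neutrophil markers was 0.327 to 0.519 in Sham, 148, 34.5, 0.7 and 5.33 in Vehicle 1 to 4, and 0.205 to 1.17 in LJP, with 2 of the 8 at 0 in every Sham mouse. Summed levels of 4 erythroid markers were 3.58 to 5.72 in Sham, 84.6, 47.6, 9.42 and 13.4 in Vehicle 1 to 4, and 5.06 to 8.16 in LJP. Of the 7 markers of monocyte-derived cells, Fn1 made up most of the sum in every mouse, and the other 6 summed to 1.75 to 2.29 in Sham, to 198, 194, 4.25 and 26.3 in Vehicle 1 to 4, and to 1.56 to 8.65 in LJP. Fn1 alone was at 83.4 to 86.6 in Sham, 457, 1098, 229 and 254 in Vehicle 1 to 4, and 120 to 250 in LJP. The summed level of 8 microglia markers was higher in both ischemic groups, at 282 to 290 in Sham, 385, 745, 782 and 818 in Vehicle 1 to 4, and 488 to 851 in LJP. Neuron markers summed to 3600 or more in every mouse, so the labelled tissue's neurons were present, while choroid plexus markers ranged from 22.6 to 913 between mice. The part of these cells in the results below was not tested, and in bulk tissue a change in the number of cells cannot be told apart from a change in RNA per cell.

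The comparison of Vehicle with Sham asks how these genes differed between I/R and sham surgery, with saline given to both groups. By edgeR's quasi-likelihood test with Benjamini-Hochberg adjustment over all 17558 genes, 17 members were higher in Vehicle at an adjusted p below 0.05, and 1 member, Cx3cl1, was lower. The background was large, since 39.9% of all tested genes were called in this comparison, 22.7% as higher and 17.3% as lower. Of all genes called, 56.8% were higher with TMM scaling and 67.3% with library size as the only scaling, under which 17 members were higher and 1 lower as before. With no overlap between the 4 Vehicle and the 4 Sham mice, 16 tested members were higher, as were 20.7% of genes, and 1 was lower, as were 18.8%. The median log2 fold change of the 29 tested members was 1.68, against 3.54e-05 over all tested genes, and members with low counts in Sham were tested only because their counts were high elsewhere. Among the 17 genes called higher, Vehicle 1 and Vehicle 2 were the highest mice of all 12 for 12 genes. The share of all genes with this order was not computed, and these mice also lay apart over genes that are not members. The other 5 of the 17 genes were Ccl3, Ccl4, Cxcl10, Cxcl16 and Cx3cr1. Without Vehicle 1 and Vehicle 2, a setting added after the data were seen, 15 members were called against a background of 29.7%, and Ccr2, Ccrl2 and Ackr3 were the ones lost.

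**Figure D1:**
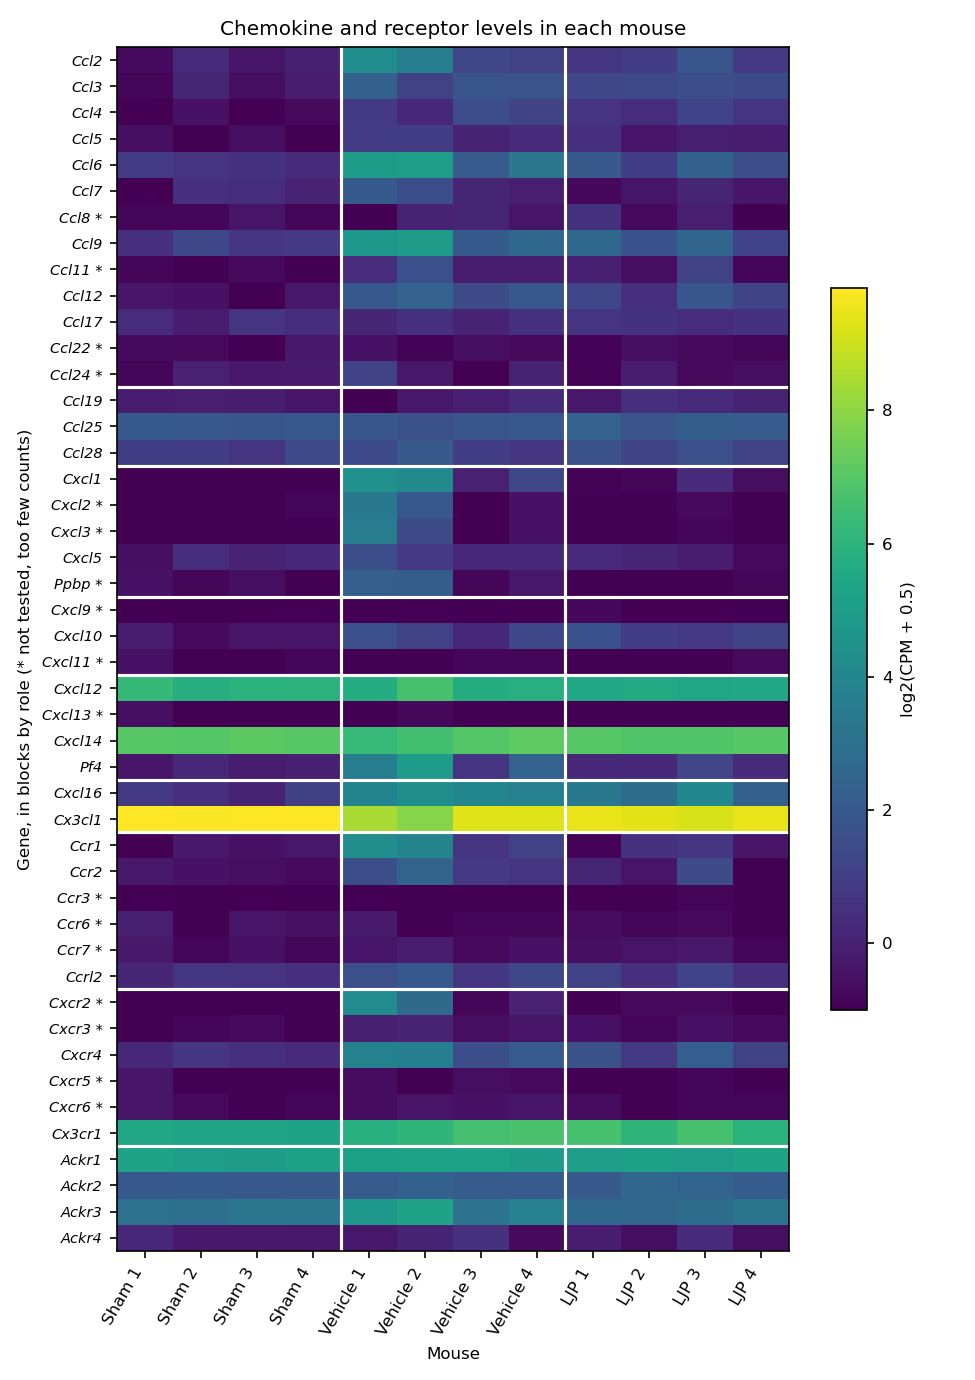
Level of each of the 46 genes (rows, in blocks by role, with an asterisk for the 17 genes not tested) in each of the 12 mice (columns), as log2(CPM + 0.5). Cx3cl1, Cxcl14 and Cxcl12 are among the brightest rows in every mouse, and rows such as Cxcl1, Ccr1 and Ccl6 are brightest in Vehicle 1 and Vehicle 2.

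The comparison of LJP with Vehicle asks how the polysaccharide changed the response to I/R. No member was called by edgeR at an adjusted p below 0.05, where 0.0228% of all genes were called, and 13 members had an unadjusted p under 0.05, as did 29.7% of genes. With the study's cut-offs (log2 fold change beyond 0.58 in size and unadjusted p under 0.01) applied to the edgeR values, 9 members were lower in LJP and 0 were higher, against 5.89% of genes lower. These 9 were Ccl2, Ccl6, Ccl7, Ccl9, Cxcl1, Pf4, Ccr1, Cxcr4 and Ackr3. DESeq2, at an adjusted p below 0.05, called these 9 and Cxcl12, all lower in LJP, against a background of 13.7%. The study applied its cut-offs to DESeq2, and with DESeq2's values they took in the same 10, against 7.09% of genes lower, a setting added after the data were seen. With no low-count filter edgeR called 9 members, against 1.96% of genes. With 1 mouse left out, edgeR called 11 members without Vehicle 3 against a background of 21.6%, 9 without Vehicle 4 against 11.7%, and 0 without any other mouse. Without both Vehicle 1 and Vehicle 2, a setting added after the data were seen, it called 0 members, where 0.0443% of genes were called. The median log2 fold change of the 29 tested members was −0.75, against −0.00174 over all genes.

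In the comparison of LJP with Sham, which asks what remained of the ischemic response under LJP, 6 members were higher and 0 were lower, where 4.75% of genes were called and 3.85% were called higher. The 6 were Ccl3, Ccl4, Ccl12, Cxcl10, Cxcl16 and Cx3cr1. The LJP and Sham ranges did not overlap for 12 tested members that were higher, as for 12.9% of genes, and for 2 that were lower, Cxcl12 and Cx3cl1, as for 12% of genes. A fit of the LJP and Sham mice alone tested 22 members and called 12 of them, 10 higher and 2 lower, against a background of 23.8%. The 6 genes gained in that fit were Ccl2, Ccl6, Ccl9 and Cxcr4, which were higher in LJP, and Cxcl12 and Cx3cl1, which were lower. Each pair of these comparisons shares a group of mice, so their values are given side by side and not as independent results.

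**Figure D2:**
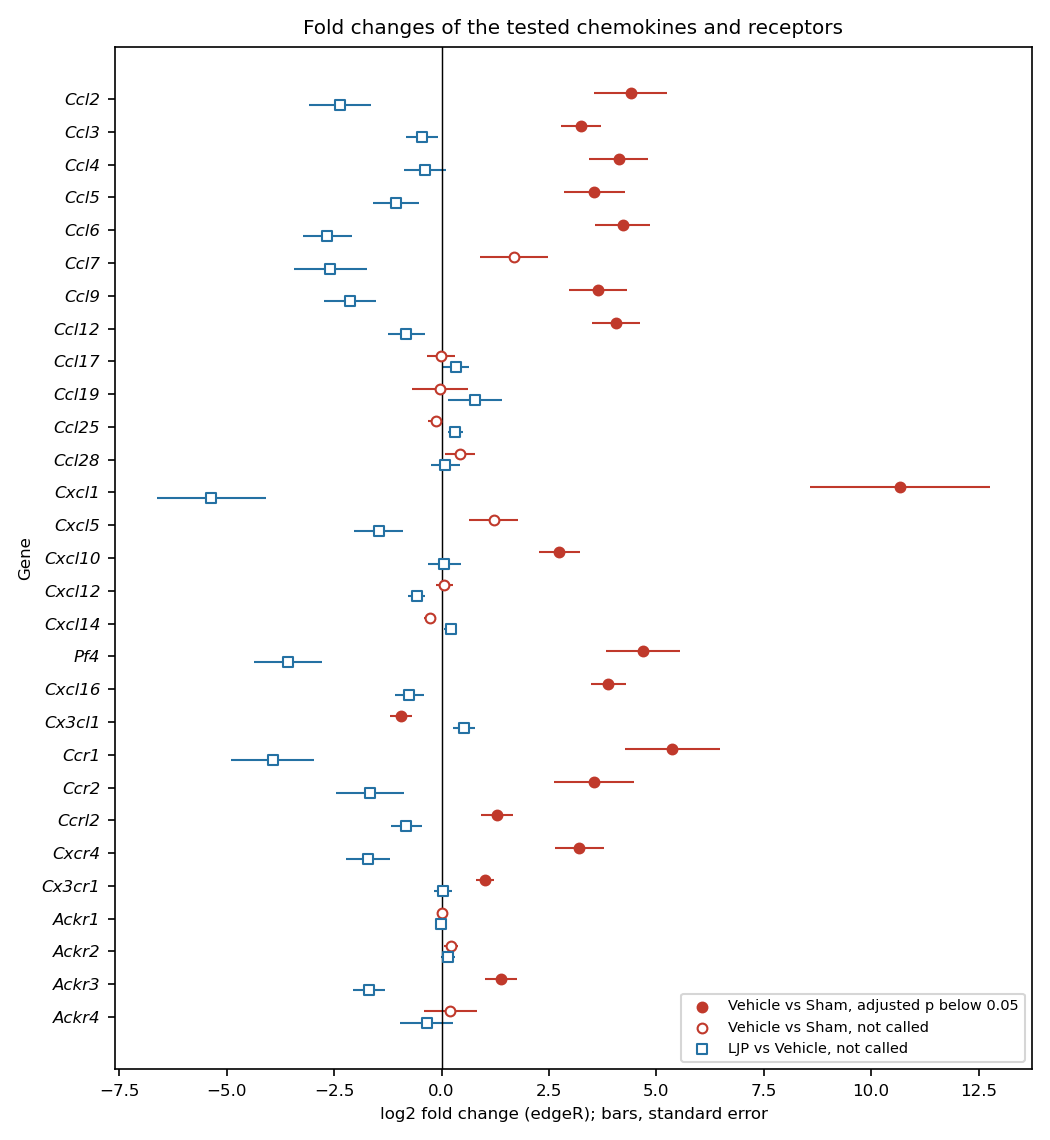
The log2 fold change of the 29 tested members (rows) with its standard error, for Vehicle against Sham (circles) and LJP against Vehicle (squares); filled symbols passed an adjusted p of 0.05 by edgeR. The 18 filled circles are all in the first comparison, and the Cxcl1 circle at 10.67 is a fitted value against a group in which every mouse was at 0.

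Among the inflammatory CC chemokines, which recruit monocytes, macrophages and T cells, 7 of the 9 tested genes were higher in Vehicle than in Sham and Ccl7 and Ccl17 were not called. Ccl2, the main monocyte attractant, was at 0.115, 0.763, 0.274 and 0.466 CPM in Sham 1 to 4, at 19.5, 11.8, 1.99 and 1.67 in Vehicle 1 to 4, and at 1.09, 1.33, 3.15 and 1.23 in LJP 1 to 4. Every Vehicle mouse was above every Sham mouse, and Vehicle 1 exceeded Vehicle 4 by 11.7-fold. Its log2 fold change was 4.41 (SE 0.85, adjusted p = 0.00217) in Vehicle against Sham, and 2.14 (SE 0.54, adjusted p = 0.0076) without Vehicle 1 and Vehicle 2. In LJP against Vehicle the value was −2.37 (SE 0.72, adjusted p = 0.0752), and it was −0.11 (SE 0.48) without those mice.

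Ccl6 and Ccl9, neighbouring genes of the myeloid CC chemokines found in mice, were likewise highest in Vehicle 1 and Vehicle 2. Ccl6 stood at 1.33, 1.09, 0.986 and 0.777 CPM in Sham 1 to 4, at 31.1, 33.5, 3.88 and 9.43 in Vehicle 1 to 4, and at 3.54, 1.53, 4.68 and 2.56 in LJP 1 to 4. For Ccl9 the levels were 0.923, 2.07, 1.15 and 1.24 CPM in Sham 1 to 4, 26.7, 31.0, 3.66 and 5.82 in Vehicle 1 to 4, and 5.59, 2.81, 5.22 and 1.78 in LJP 1 to 4. Both genes thus had all Vehicle mice above all Sham mice, and Vehicle 3 lay within the LJP range. Ccl6 had a log2 fold change of 4.22 (SE 0.64, adjusted p = 0.000604) in Vehicle against Sham and −2.66 (SE 0.57, adjusted p = 0.0678) in LJP against Vehicle. That of Ccl9 was 3.64 (SE 0.67, adjusted p = 0.00178) and −2.12 (SE 0.61, adjusted p = 0.0709). Without Vehicle 1 and Vehicle 2 the values against Sham were 2.66 (SE 0.40) for Ccl6 and 1.80 (SE 0.41) for Ccl9, both still called, and those of LJP against Vehicle were −1.11 (SE 0.37) and −0.29 (SE 0.38).

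Ccl3 and Ccl4, which encode the macrophage inflammatory proteins 1 alpha and 1 beta, were spread more evenly over the ischemic mice. Ccl3 was at 0.0577, 0.599, 0.164 and 0.415 CPM in Sham 1 to 4, at 4.49, 1.72, 3.01 and 2.91 in Vehicle 1 to 4, and at 2.00, 2.10, 2.56 and 2.17 in LJP 1 to 4. Ccl4 had 0, 0.218, 0 and 0.104 CPM in Sham, 1.27, 0.645, 2.42 and 1.83 in Vehicle, and 1.04, 0.818, 1.79 and 1.06 in LJP. All 8 ischemic mice lay above all Sham mice for both genes, and the ischemic groups overlapped. For Ccl3 the log2 fold change was 3.25 (SE 0.46, adjusted p = 0.000428) in Vehicle and 2.79 (SE 0.47, adjusted p = 0.00438) in LJP, each against Sham. For Ccl4 it was 4.12 (SE 0.69, adjusted p = 0.00105) and 3.75 (SE 0.70, adjusted p = 0.00863). LJP differed from Vehicle by −0.46 (SE 0.38, adjusted p = 0.421) for Ccl3 and by −0.38 (SE 0.49, adjusted p = 0.618) for Ccl4. The genes overlap by 755 bases on opposite strands and the library kit is not stated to mark strand, so reads there cannot be told apart.

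Ccl12, a mouse attractant of monocytes, was above the Sham range in every ischemic mouse. It was at 0.288, 0.218, 0 and 0.311 CPM in Sham 1 to 4, at 3.49, 4.77, 2.31 and 3.39 in Vehicle 1 to 4, and at 2.00, 0.869, 3.21 and 1.84 in LJP 1 to 4. Vehicle exceeded Sham by a log2 fold change of 4.05 (SE 0.55, adjusted p = 0.000338), and LJP exceeded Sham by 3.23 (SE 0.56, adjusted p = 0.00569). The LJP mice averaged 1.98 ± 0.96 CPM (SD, n = 4) and the Vehicle mice 3.49 ± 1.00, a difference that was not called (−0.82, SE 0.43, adjusted p = 0.213).

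Ccl5, a T cell and monocyte attractant, was low in all mice. Its level was 0.173, 0, 0.164 and 0 CPM in Sham 1 to 4, 1.36, 1.46, 0.538 and 0.754 in Vehicle 1 to 4, and 0.863, 0.256, 0.435 and 0.39 in LJP 1 to 4. Vehicle was higher than Sham by 3.56 on the log2 scale (SE 0.70, adjusted p = 0.00247), and LJP against Vehicle gave −1.07 (SE 0.54, adjusted p = 0.198). Without Vehicle 1 and Vehicle 2 these were 2.87 (SE 0.80, adjusted p = 0.0135) and −0.39 (SE 0.62). Ccl7, another monocyte attractant, read 0, 0.926, 0.822 and 0.518 CPM in Sham 1 to 4, 3.72, 2.54, 0.592 and 0.431 in Vehicle 1 to 4, and 0.0908, 0.256, 0.598 and 0.279 in LJP 1 to 4. Vehicle 3 and Vehicle 4 were thus within the Sham range. Ccl7 had a log2 fold change of 1.68 (SE 0.78, adjusted p = 0.104) in Vehicle against Sham, which turned to −0.16 (SE 0.78) without Vehicle 1 and Vehicle 2, and was −2.59 (SE 0.85, adjusted p = 0.0856) in LJP against Vehicle, or −0.76 (SE 0.83) without those mice.

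Among the remaining inflammatory CC genes, Ccl8, Ccl11, Ccl22 and Ccl24 did not pass the low-count filter. Ccl11 encodes the eosinophil attractant eotaxin. Its counts were 1, 0, 2 and 0 in Sham 1 to 4, 18, 61, 7 and 7 in Vehicle 1 to 4, and 10, 3, 30 and 1 in LJP 1 to 4. The Vehicle mice had 93 counts in all against 3 in Sham, a ratio of 27.5 with a 95% counting interval of 9.14 to 136 that does not cover the spread between mice. All Vehicle mice were above all Sham mice (exact permutation p = 0.0286). With no filter edgeR called Ccl11 higher in Vehicle (log2 fold change 4.50, adjusted p = 0.00818), as it did in 9 of the 12 fits with 1 mouse left out, in which the gene was tested. Those fits share most of their mice and are not independent, and in them Ccl11 passed the filter through ischemic mice. Ccl24 counts were 1, 9, 6 and 7 in Sham, 36, 7, 0 and 10 in Vehicle, and 1, 8, 2 and 3 in LJP, so the groups overlapped. Ccl8 counts ranged from 1 to 5 in Sham, from 0 to 13 in Vehicle and from 0 to 22 in LJP, and Ccl22 counts from 0 to 6 over all mice. Ccl17, a T cell attractant, averaged 0.778 ± 0.295, 0.772 ± 0.218 and 0.972 ± 0.105 CPM (SD, n = 4) in Sham, Vehicle and LJP. The homeostatic Ccl19, Ccl25 and Ccl28, which guide lymphocytes in lymphoid and mucosal tissue, were not called in any comparison. Ccl25 averaged 3.45 ± 0.211 CPM in Sham, 3.15 ± 0.279 in Vehicle and 3.93 ± 0.762 in LJP. Ccl28 averaged 1.55 ± 0.444, 2.08 ± 1.08 and 2.23 ± 0.515, and Ccl19 averaged 0.371 ± 0.0774, 0.371 ± 0.313 and 0.626 ± 0.253. Ccl19 has pseudogene copies and Ccl25 lies over a noncoding gene on the same strand, so the reads of both genes are uncertain.

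The ELR-positive chemokines, which attract neutrophils through Cxcr2, had their highest counts in Vehicle 1 and Vehicle 2. Cxcl1 had 0 counts in every Sham mouse, 488, 398, 9 and 36 counts in Vehicle 1 to 4, and 1, 1, 14 and 3 counts in LJP 1 to 4. All Vehicle mice were above all Sham mice, yet Vehicle 3 had fewer counts than LJP 3. Over the group, the Vehicle level was at least 276-fold higher than Sham, taking the Sham group at a floor of 3 counts (edgeR adjusted p = 0.00401), at least 179-fold higher without Vehicle 1, and at least 29.6-fold higher without Vehicle 1 and Vehicle 2. In the fit of the Vehicle and Sham mice alone Cxcl1 did not enter the test, so its call was lost there. The mean fell from 10.4 ± 10.8 CPM (SD, n = 4) in Vehicle to 0.256 ± 0.341 in LJP, a log2 fold change of −5.36 (SE 1.27, adjusted p = 0.0678) that was not called by edgeR. Without Vehicle 1 and Vehicle 2 it was −2.26 (SE 0.84, adjusted p = 0.292).

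Cxcl2, Cxcl3 and Ppbp, whose protein is a platelet chemokine, sat in so few mice that they did not pass the low-count filter. Cxcl2 had counts of 0, 0, 0 and 1 in Sham 1 to 4, 216, 80, 0 and 4 in Vehicle 1 to 4, and 0, 0, 2 and 0 in LJP 1 to 4. Cxcl3 had 0 counts in all Sham mice, 252, 56, 0 and 4 in Vehicle, and 0, 0, 1 and 0 in LJP. Ppbp had 4, 1, 3 and 0 counts in Sham, 96, 94, 1 and 6 in Vehicle, and 0, 0, 0 and 1 in LJP. In each gene the counts of Vehicle 1 and Vehicle 2 made up nearly all of the group, and Vehicle 3 was within the Sham range. Exact two-sided permutation tests on log2(CPM + 0.5), whose smallest possible p at 4 against 4 is 0.0286, gave p = 0.143 for each of the 3 genes in Vehicle against Sham. In LJP against Vehicle the exact permutation p was 0.143 for Cxcl2 and Cxcl3 and 0.0571 for Ppbp. Without Vehicle 3 the exact permutation p was 0.0286 for each of the 3 genes in both comparisons, the smallest that 3 against 4 mice can give. Without Vehicle 1, 2 or 4 in turn it lay between 0.114 and 0.171 in Vehicle against Sham, and in LJP against Vehicle it stayed at 0.143 for Cxcl2 and Cxcl3 and at 0.0571 for Ppbp. With no low-count filter edgeR called Cxcl2, Cxcl3 and Ppbp higher in Vehicle than in Sham (adjusted p = 0.003, 0.00612 and 0.00681) and lower in LJP than in Vehicle (adjusted p = 0.0424, 0.0458 and 0.041). Cxcl5 was the ELR gene detected in every mouse, at 0.173, 0.817, 0.548 and 0.674 CPM in Sham 1 to 4, 2.54, 1.25, 0.646 and 0.7 in Vehicle 1 to 4, and 0.727, 0.614, 0.381 and 0.111 in LJP 1 to 4. It was not called in Vehicle against Sham (log2 fold change 1.21, SE 0.57, adjusted p = 0.104) nor in LJP against Vehicle (−1.46, SE 0.57, adjusted p = 0.122), and these were 0.27 and −0.52 without Vehicle 1 and Vehicle 2.

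Cxcr2, the receptor of these ligands and a marker of neutrophils, was highest in the same mice. It had 0 counts in all Sham mice, 408, 146, 1 and 9 counts in Vehicle 1 to 4, and 0, 2, 2 and 0 in LJP 1 to 4. The Vehicle group as a whole was at least 167-fold above Sham at a floor of 3 counts and at least 63-fold above it without Vehicle 1 and 6.57-fold without Vehicle 1 and Vehicle 2, and the exact permutation test gave p = 0.0286, the smallest it can give. LJP had 4 counts in all against 564 in Vehicle, and the groups overlapped through Vehicle 3 (exact permutation p = 0.0857). Without any one Sham mouse the difference between Vehicle and Sham stayed at 2.53 on the log2(CPM + 0.5) scale, while the exact permutation p of 4 against 3 mice was 0.171. The exact permutation p of LJP against Vehicle was 0.0286 without Vehicle 3 and stayed at 0.0857 without any other Vehicle mouse. With no low-count filter edgeR called Cxcr2 in both comparisons (adjusted p = 0.00321 and 0.0434). Neutrophil markers had the same order within the Vehicle group, with a summed level of 148 CPM in Vehicle 1, 34.5 in Vehicle 2, 5.33 in Vehicle 4 and 0.7 in Vehicle 3, and their part in the Cxcr2 result was not tested.

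**Figure D3:**
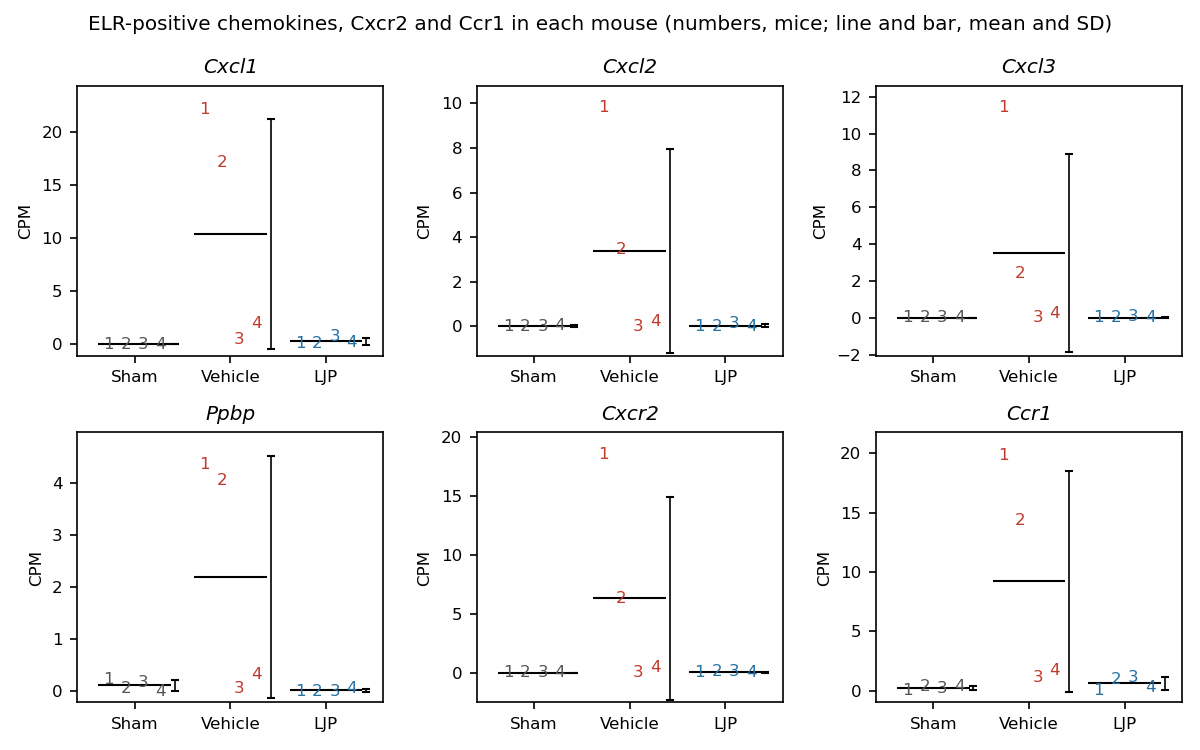
Level in CPM of Cxcl1, Cxcl2, Cxcl3, Ppbp, Cxcr2 and Ccr1 in each mouse (numerals 1 to 4), with the group mean (line) and SD (bar), on linear axes. In each panel Vehicle 1 and Vehicle 2 are the highest mice, and Vehicle 3 and Vehicle 4 lie near the Sham and LJP mice.

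Cxcl10, the interferon-inducible ligand of Cxcr3, was above the Sham range in all 8 ischemic mice. Its level was 0.404, 0.109, 0.274 and 0.259 CPM in Sham 1 to 4, 2.59, 1.72, 0.7 and 2.05 in Vehicle 1 to 4, and 2.82, 1.48, 1.25 and 1.84 in LJP 1 to 4. The ischemic groups overlapped, and LJP 1 was the highest mouse. Cxcl10 had a log2 fold change of 2.74 (SE 0.48, adjusted p = 0.00129) in Vehicle and 2.80 (SE 0.48, adjusted p = 0.00485) in LJP, each against Sham, and 0.07 (SE 0.39, adjusted p = 0.917) between the ischemic groups. The gene lies within Art3 on the opposite strand, and Art3 itself was not called in Vehicle against Sham (−0.48, adjusted p = 0.0945). Cxcl9 and Cxcl11, the other ligands of Cxcr3, had 2 and 9 counts in total over the 12 mice. Cxcr3, which marks activated T cells, had 0, 1, 2 and 0 counts in Sham, 10, 13, 3 and 5 in Vehicle, and 5, 1, 4 and 2 in LJP. The Vehicle and Sham ranges did not overlap (exact permutation p = 0.0286), and the ratio of their summed counts was 9.18 (95% counting interval 2.86 to 46.9). Sham held 3 counts in all, and the interval does not cover the spread between mice. With no filter edgeR called Cxcr3 higher in Vehicle (adjusted p = 0.0177).

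Pf4, encoding platelet factor 4 and also made by macrophages of the brain borders, was the 1 called gene of the other CXC chemokines. It was at 0.288, 0.654, 0.384 and 0.466 CPM in Sham 1 to 4, at 11.3, 29.9, 1.08 and 4.74 in Vehicle 1 to 4, and at 0.681, 0.665, 1.90 and 0.725 in LJP 1 to 4. Vehicle 2 had 27.8 times the level of Vehicle 3, while Vehicle 3 lay below LJP 3. Pf4 had a log2 fold change of 4.70 (SE 0.86, adjusted p = 0.00172) against Sham and −3.57 (SE 0.78, adjusted p = 0.0678) for LJP against Vehicle. Without Vehicle 1 and Vehicle 2 these became 2.67 (SE 0.56, adjusted p = 0.00236) and −1.56 (SE 0.52, adjusted p = 0.236). Markers of border-associated macrophages summed to 12.0 to 14.5 CPM in Sham, to 69.2, 179, 36.0 and 42.4 in Vehicle 1 to 4 and to 17.3 to 31.8 in LJP, and their part in the Pf4 result was not tested. Of 3 platelet markers tested, 1 was higher and 1 lower in Vehicle.

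Cxcl12 and Cxcl14, chemokines of the uninjured brain, were abundant in every mouse. Cxcl12, the ligand of Cxcr4, was at 73.2, 53.9, 62.8 and 62.8 CPM in Sham 1 to 4, at 51.2, 103, 51.6 and 56.7 in Vehicle 1 to 4, and at 44.0, 47.4, 40.5 and 43.8 in LJP 1 to 4. Each LJP mouse was below each mouse of both other groups. Vehicle against Sham gave a log2 fold change of 0.06 (SE 0.20, adjusted p = 0.83), which turned to −0.25 without Vehicle 2 and to −0.23 without Vehicle 1 and Vehicle 2. LJP against Vehicle gave −0.58 (SE 0.20, adjusted p = 0.0916) and LJP against Sham −0.52 (SE 0.20, adjusted p = 0.166), neither called by edgeR with all 12 mice in the fit. In LJP against Vehicle, 5.91% of all genes were lower with no overlap, and Cxcl12 was the 1 tested member among them. DESeq2 called it lower in LJP than in Vehicle (adjusted p = 0.0436), and edgeR did so without Vehicle 3 (−0.68, SE 0.20, adjusted p = 0.0342), while without Vehicle 1 and Vehicle 2 it was not called (−0.30, SE 0.10, adjusted p = 0.230). Against Sham, edgeR called it lower in LJP in the fit of those groups alone (−0.53, SE 0.08, adjusted p = 0.000539) and without Vehicle 2 (−0.53, SE 0.09, adjusted p = 0.00194, background 13.3%). Cxcl14 averaged 130 ± 3.89 CPM (SD, n = 4) in Sham and 125 ± 6.31 in LJP, and was at 75.3, 94.1, 123 and 141 in Vehicle 1 to 4. Its differences were not called (−0.27, SE 0.15, adjusted p = 0.165 in Vehicle against Sham). Cxcl13, the B cell attractant, had 5 counts over the 12 mice.

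Cx3cl1, the neuronal ligand, was the most abundant member and the 1 tested member that was lower in Vehicle than in Sham. It stood at 916, 872, 909 and 902 CPM in Sham 1 to 4, at 342, 234, 641 and 642 in Vehicle 1 to 4, and at 720, 666, 573 and 721 in LJP 1 to 4. No Vehicle mouse reached the Sham range, and neither did any LJP mouse. The log2 fold change was −0.95 (SE 0.25, adjusted p = 0.0112) in Vehicle against Sham and −0.49 (SE 0.08, adjusted p = 0.000247) without Vehicle 1 and Vehicle 2. LJP lay 0.53 above Vehicle on that scale (SE 0.25, adjusted p = 0.181), and 0.06 above it (SE 0.08) without those mice. LJP against Sham was −0.42 (SE 0.25, adjusted p = 0.405) with all mice in the fit, and was called lower in the fit of LJP and Sham alone (−0.43, SE 0.06, edgeR adjusted p = 0.000406). An antisense noncoding gene, Gm51543, overlaps Cx3cl1 by 1327 bases, and its log2 fold change in Vehicle against Sham was −0.95 (adjusted p = 0.00774). The counting is not stated to use strand, so reads of these 2 genes cannot be told apart there. The summed level of 6 neuron markers was 5656 to 6313 CPM in Sham, 4568, 3600, 5583 and 5374 in Vehicle 1 to 4, and 5373 to 6431 in LJP, with 3 of the 6 lower in Vehicle, and its part in the Cx3cl1 result was not tested.

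The receptor Cx3cr1 moved the other way. Its level was 42.9, 40.3, 40.0 and 38.7 CPM in Sham 1 to 4, 55.4, 67.0, 99.4 and 104 in Vehicle 1 to 4, and 103, 64.9, 103 and 60.8 in LJP 1 to 4. Vehicle 1 and Vehicle 2, the highest mice for most of the called members, were here the lowest of their group. The gene was higher than in Sham by 1.01 (SE 0.22, adjusted p = 0.00387) in Vehicle and by 1.04 (SE 0.22, adjusted p = 0.0167) in LJP on the log2 scale. LJP against Vehicle gave 0.03 (SE 0.21, adjusted p = 0.941), with overlapping ranges. The call in LJP against Sham was lost without any of the Sham mice, without LJP 1 and without LJP 3, at values of 0.91 to 1.07. Microglia markers were also higher in both ischemic groups by their summed level. Of the 8 markers, 5 were called higher than Sham in Vehicle, where 22.7% of all genes were, and 5 in LJP, where 3.85% were. P2ry12, Siglech and Gpr34 were called in neither group, and Siglech had a log2 fold change of −0.28 in Vehicle against Sham.

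Cxcl16, a membrane-bound ligand that can be shed, had the lowest p of the members in Vehicle against Sham. It was at 1.27, 0.872, 0.548 and 1.55 CPM in Sham 1 to 4, at 14.4, 20.6, 15 and 12.7 in Vehicle 1 to 4, and at 9.86, 6.70, 16.3 and 4.57 in LJP 1 to 4. Both ischemic groups were above Sham without overlap, and LJP 3 was above 3 of the Vehicle mice. Cxcl16 had a log2 fold change of 3.88 (SE 0.41, adjusted p = 0.000102) in Vehicle and 3.13 (SE 0.41, adjusted p = 0.00125) in LJP, each against Sham. Between the ischemic groups it was −0.75 (SE 0.34, adjusted p = 0.163). Zmynd15, on the opposite strand with 552 shared bases, was higher as well (3.90, adjusted p = 0.000113, in Vehicle against Sham), and reads in the shared bases cannot be told apart. Cxcr6, the receptor of Cxcl16, had 31 counts in total, lies within Fyco1 and was not tested.

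**Figure D4:**
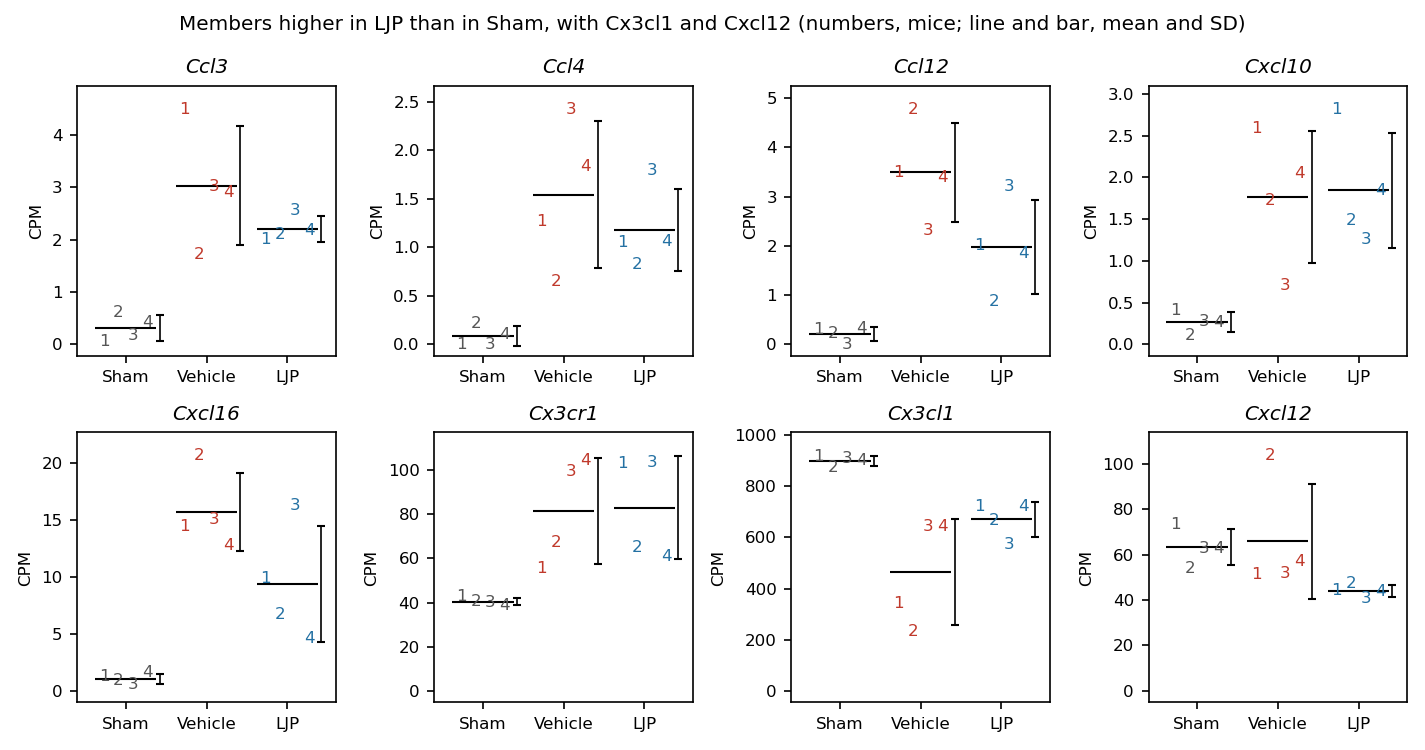
Level in CPM of the 6 members that were higher in LJP than in Sham, with Cx3cl1 and Cxcl12, in each mouse (numerals 1 to 4), with the group mean (line) and SD (bar). The Vehicle and LJP ranges overlap for each of these 6 members and for Cx3cl1. All ischemic mice are below Sham for Cx3cl1, and the LJP mice are lowest for Cxcl12.

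The 3 tested CC receptors were each higher in Vehicle than in Sham. Ccr1, the myeloid receptor of Ccl3, Ccl5, Ccl6 and Ccl9, was at 0, 0.327, 0.219 and 0.311 CPM in Sham 1 to 4, at 19.8, 14.4, 1.08 and 1.67 in Vehicle 1 to 4, and at 0.0454, 0.971, 1.14 and 0.279 in LJP 1 to 4. Vehicle 3 lay within the LJP range and above Sham. Ccr1 had a log2 fold change of 5.37 (SE 1.1, adjusted p = 0.00296) against Sham, and 2.62 (SE 0.80, adjusted p = 0.0225) without Vehicle 1 and Vehicle 2. LJP against Vehicle gave −3.93 (SE 0.97, adjusted p = 0.0678), and −1.19 (SE 0.71) without those mice.

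Ccr2, the receptor of Ccl2 on monocytes, was at 0.346, 0.218, 0.164 and 0.104 CPM in Sham 1 to 4, at 2.50, 5.03, 1.24 and 1.08 in Vehicle 1 to 4, and at 0.59, 0.256, 2.28 and 0 in LJP 1 to 4. LJP 3 thus exceeded Vehicle 3 and Vehicle 4 while LJP 4 had no count. The log2 fold change of 3.55 against Sham (SE 0.94, adjusted p = 0.0104) was not called without Vehicle 1 and Vehicle 2 (2.45, SE 0.94, adjusted p = 0.0643). LJP against Vehicle gave −1.66 (SE 0.79, adjusted p = 0.177), and −0.57 (SE 0.81) without those mice. Ccrl2, a chemerin-binding receptor related to the CC class, was at 0.634, 1.14, 1.04 and 0.933 CPM in Sham 1 to 4, at 2.63, 3.44, 1.13 and 1.94 in Vehicle 1 to 4, and at 1.68, 0.869, 1.74 and 0.892 in LJP 1 to 4. Its groups overlapped, and the call (1.28, SE 0.37, adjusted p = 0.0159) was lost without Sham 1 at 1.14 and without Vehicle 1 and Vehicle 2 at 0.70. Ccr3, Ccr6 and Ccr7 had 1, 33 and 49 counts over all mice and were not tested.

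Cxcr4, the receptor of Cxcl12 on leukocytes and progenitor cells, was at 0.692, 1.14, 0.877 and 0.726 CPM in Sham 1 to 4, at 13.3, 12.3, 2.58 and 3.77 in Vehicle 1 to 4, and at 2.68, 1.28, 4.19 and 1.62 in LJP 1 to 4. All Vehicle mice and all LJP mice were above Sham, and LJP 3 was above Vehicle 3 and Vehicle 4. Against Sham, Vehicle was higher by 3.21 (SE 0.56, adjusted p = 0.00135), and by 1.87 (SE 0.41, adjusted p = 0.00317) without Vehicle 1 and Vehicle 2, while LJP was 1.5 above Sham (SE 0.57, adjusted p = 0.169). LJP against Vehicle was −1.71 (SE 0.51, adjusted p = 0.0729), and −0.38 (SE 0.38) without those mice. Cxcr5, the B cell receptor of Cxcl13, had 14 counts in total.

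Ackr3, the atypical receptor that also binds Cxcl12, was the 1 called atypical receptor. It was at 7.67, 7.19, 8.93 and 8.97 CPM in Sham 1 to 4, at 26.8, 37.9, 8.13 and 12.6 in Vehicle 1 to 4, and at 5.86, 5.52, 6.53 and 8.64 in LJP 1 to 4. Vehicle 3 was inside the Sham range and below LJP 4. The log2 fold change was 1.39 (SE 0.37, adjusted p = 0.0117) in Vehicle against Sham and was not called without Vehicle 1 and Vehicle 2 (0.33, SE 0.20, adjusted p = 0.237). In LJP against Vehicle it was −1.69 (SE 0.38, adjusted p = 0.0678), and −0.65 (SE 0.20, adjusted p = 0.214) without those mice. Endothelial markers summed to 210 to 225 CPM in Sham, to 657, 1390, 295 and 353 in Vehicle 1 to 4 and to 210 to 268 in LJP, and fibroblast markers to 59.6 to 65.1, to 103, 903, 119 and 179, and to 58.6 to 94.9, and their part in the Ackr3 result was not tested. Ackr1, Ackr2 and Ackr4 were not called. Ackr2, a scavenger of inflammatory CC chemokines, averaged 3.51 ± 0.108 CPM (SD, n = 4) in Sham, 4.08 ± 0.377 in Vehicle and 4.54 ± 0.871 in LJP. All 4 Vehicle mice were above all Sham mice for Ackr2, with a log2 fold change of 0.22 that was not called (SE 0.17, adjusted p = 0.312). Ackr1 averaged 34.3 ± 2.84, 34.7 ± 2.61 and 34.4 ± 2.70, but 1612 of its bases lie within Cadm3 on the same strand, which had 123304 counts in total, so its reads are uncertain. Ackr4 averaged 0.415 ± 0.185, 0.477 ± 0.367 and 0.373 ± 0.284 CPM and lies within Acad11.

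**Figure D5:**
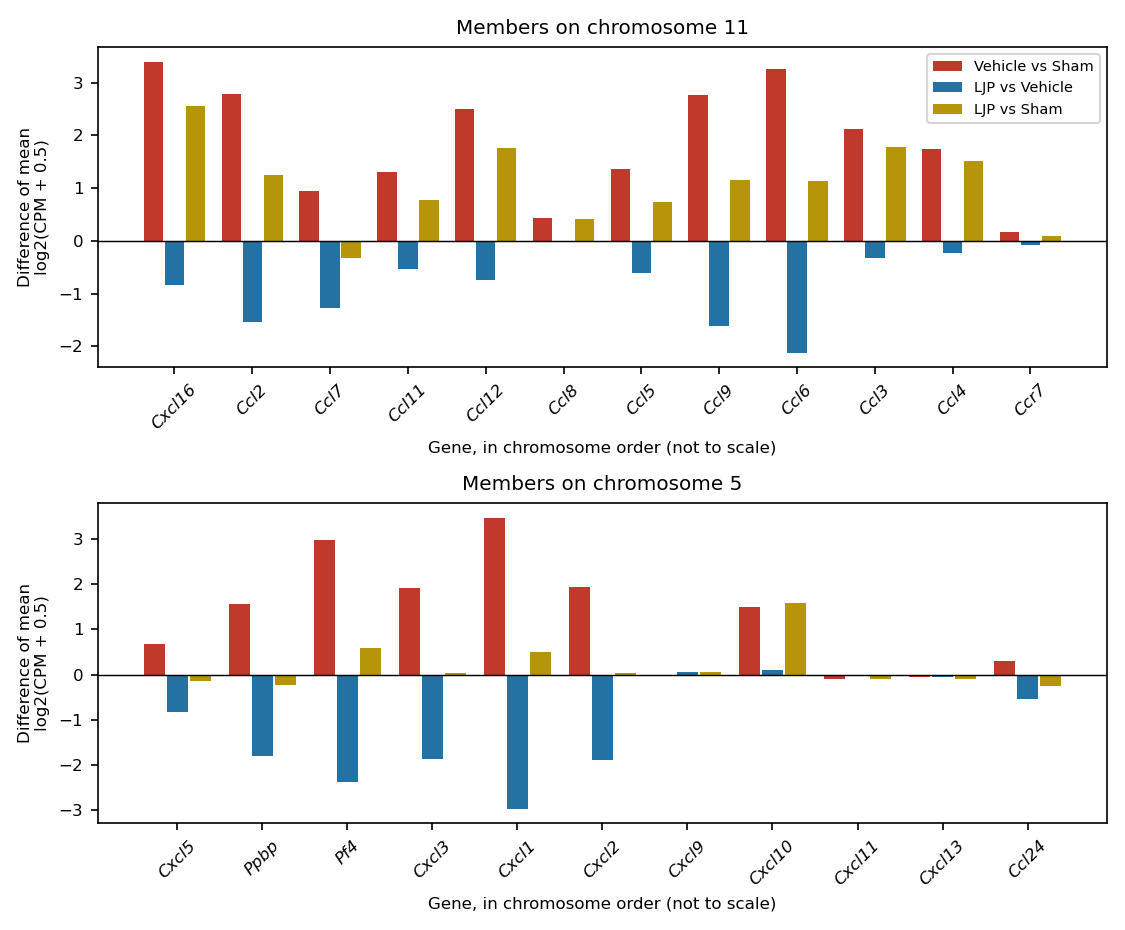
Difference between group means of log2(CPM + 0.5) for the members on chromosome 11 (upper panel) and chromosome 5 (lower panel), in chromosome order, for the 3 comparisons (bar colours). Among the neighbouring genes, Cxcl1 has the tallest bars of chromosome 5 in both directions and Cxcl10 differs by 0.09 between LJP and Vehicle.

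Levels between genes were compared per kilobase of transcript. In Sham the order was Cx3cl1 at 286 ± 6.13 CPM per kilobase (SD, n = 4), Cxcl14 at 41.7 ± 1.25, Ackr1 at 29.6 ± 2.45 with the limit given above, Cx3cr1 at 10.8 ± 0.473 and Cxcl12 at 8.82 ± 1.1. In Vehicle the first 4 places were the same genes, at 148 ± 66.5, 34.6 ± 9.34, 30.0 ± 2.25 and 21.7 ± 6.40 CPM per kilobase, and Cxcl14 and Ackr1 differed by less than their spread. Pf4 at 20.0 ± 21.8, Ccl6 at 13.6 ± 10.5, Cxcl1 at 10.9 ± 11.4 and Ccl2 at 10.8 ± 10.6 CPM per kilobase came next and could not be ordered beyond their spread. Cx3cr1 and Pf4 also differed by less than their spread. In LJP the places after Cx3cl1 (213 ± 22.2), Cxcl14 (40.0 ± 2.02), Ackr1 (29.7 ± 2.33) and Cx3cr1 (22.1 ± 6.22) were taken by Cxcl12 (6.13 ± 0.395) and Cxcl16 (5.16 ± 2.81), and these last genes overlapped.

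Genes that act downstream of the receptors and enzymes that process the ligands were described from lists. Of 34 tested genes of chemokine receptor signaling, 18 were higher and 3 lower in Vehicle than in Sham, where 39.9% of all genes were called, and their median log2 fold change was 0.37. Those with the lowest p were Dock2, an activator of Rac in leukocytes (2.79, SE 0.28, adjusted p = 8.96e-05), Rac2, the leukocyte Rac itself (3.59, SE 0.37, adjusted p = 9.61e-05), and Vav1, another Rac activator (2.70, SE 0.28, adjusted p = 9.61e-05). These 3 genes are expressed mainly in leukocytes. Between LJP and Vehicle 0 of the 34 were called, where 0.0228% of all genes were, and 11 were higher in LJP than in Sham, where 3.85% of all genes were. Under the study's cut-offs on edgeR's values 5 of the 34, Gnai2, Gnai3, Rac2, Fgr and Pxn, were lower in LJP than in Vehicle and 0 were higher, against 5.89% of genes lower. Among 8 tested proteases that cleave or shed chemokines, 6 were higher in Vehicle, with a median log2 fold change of 1.59. The lowest p values were those of Ctss, which encodes cathepsin S (1.81, SE 0.26, adjusted p = 0.000424), Mmp12, the macrophage elastase (5.12, SE 0.85, adjusted p = 0.00103), and Mmp14, a membrane-bound metalloproteinase (2.17, SE 0.37, adjusted p = 0.00119). Against the same backgrounds, 0 of these proteases were called between LJP and Vehicle and 2 were higher in LJP than in Sham. The same cut-offs placed 2 of the 8 lower in LJP than in Vehicle, Mmp9, or gelatinase B (−3.69), and Mmp14 (−1.56), and 0 higher. Of 4 tested family genes outside the 46, Ccl27a, a chemokine of epithelium, was lower in Vehicle (−0.60, SE 0.17, adjusted p = 0.0161). Ccl21b and Ccl21a followed with log2 fold changes of 0.30 and 0.12, neither called, and as near-identical copies they may share reads.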

How the data were processed

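Gene counts of 12 mice were used as deposited by the authors. Libraries were prepared from poly(A)-selected RNA (NEBNext Ultra kit) and sequenced paired-end on an Illumina instrument, per the labels. The submitters' processing notes name featureCounts, DESeq2 and the builds GRCm39 and mm10, without roles. The aligner, strand setting and treatment of multimapping reads were not given in the sources used here. Gene positions in the table equal RefSeq GRCm38.p6 for 39730 of 39756 genes, all members among them. One count table held every sample, and no column was pooled.

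Differences were fitted with edgeR 4.0.16 under R 4.3.3: low-count filter (filterByExpr), TMM scaling, glmQLFit and glmQLFTest with a coefficient per group over all 12 mice, and Benjamini-Hochberg adjustment over 17558 genes at 0.05. DESeq2 1.42.0, other scalings, no filter, fits of 2 groups, a replicate block, the study's cut-offs on edgeR's or DESeq2's values and leaving out each mouse were alternatives. The adjusted p-values of members are from edgeR unless DESeq2 is named. The fit was run on simulated counts with the same spread in every group. The real Vehicle mice differed more from each other than the Sham mice did, so this run does not cover that case. Promoter windows were RefSeq sequence, and levels between genes were divided by transcript length. Totals of 17960353 to 22216315 reads set the precision. Groups with 0 counts were set to a floor of 3 counts over the group, and ratios of summed counts have exact 95% intervals, both for counting error only.

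Members and lists were chosen with earlier results of these data known. Each mouse's values were given for members called in any comparison or past the study's cut-offs on edgeR's values for LJP against Vehicle, and for each pathway list the 3 genes with the lowest p in Vehicle against Sham. Cxcl5, Cxcl12 and Cxcl14 were added after their values were seen. Members that failed the filter got an exact two-sided permutation test of log2(CPM + 0.5) from 100 summed counts in a group, a minimum chosen after values were seen. Below it, p is given for Ccl11 and Cxcr3 beside their counts, and Ccl8 and Ccl24 have counts alone.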

Additional observations from a re-analysis of the deposited data

Results flagged for a closer look

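In 9 of 75 groups of 4 mice, taken over 26 members, 1 mouse lay farther from the others than the 95% limit of Dixon's test. In 4 of these groups 3 mice were at 0, which fixes the value at 1. Among the other 71 groups 5 passed, where chance at about 1 in 20 would give 3.55. The values are the gap to the nearest mouse as a share of the whole range of the group. LJP 3 was the highest of its group for Ccl2 (0.884), Pf4 (0.952), Cxcl1 (0.83), Cxcl2 (1) and Cxcl3 (1). For Cxcl2 and Cxcl3 that mouse had 2 and 1 counts and the rest of its group had 0. Cxcl2 in Sham 4 (1) and Ppbp in LJP 4 (1) also rested on 1 count each against 0. Vehicle 2 stood apart for Cxcl12 (0.894), at 103 CPM against 51.2 to 56.7 in the other Vehicle mice. Sham 3 stood apart for Cxcl14 (0.854), at 136 CPM against 128 to 129.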

How the results depend on the processing

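In LJP against Vehicle the 0 calls (background 0.0228%) became 10 with DESeq2 (13.7%) and 9 with no low-count filter (1.96%). They became 9 under the study's cut-offs on edgeR's values (5.89% of genes lower) and 10 on those of DESeq2 (7.09% lower). With 1 mouse left out they were 0 to 11, with 11 without Vehicle 3 (21.6%) and 9 without Vehicle 4 (11.7%). All of these calls were lower in LJP. Without both Vehicle 1 and Vehicle 2 there were 0 calls (0.0443%). In LJP against Sham the 6 calls became 11 under those cut-offs with DESeq2 (7.01%), 12 in the fit of those groups alone (background 23.8%) and were 5 to 8 with 1 mouse left out (2.2% to 13.3%). Vehicle against Sham gave 18 to 20 calls with 1 mouse left out (29.5% to 45.9%), 24 with no filter (21.2%) and 15 without Vehicle 1 and Vehicle 2 (29.7%). The cause of these shifts was not tested. Without Vehicle 1 and Vehicle 2, log2 fold changes changed sign for Ccl7 (−0.16), Cxcl12 (−0.23) and Cxcl14 (0.011) in Vehicle against Sham, and for Cxcl14 (−0.078) and Cx3cr1 (−0.29) in LJP against Vehicle. With 1 mouse left out, sign changes gave ranges of −0.25 to 0.16 for Cxcl12 in Vehicle against Sham, −0.21 to 0.31 for Cxcl10 and −0.12 to 0.17 for Cx3cr1 in LJP against Vehicle, and −0.57 to 0.054 for Cxcl5 in LJP against Sham. With all mice, edgeR called none of these genes in those comparisons. Cxcl14 was called lower in Vehicle than in Sham without Vehicle 4 (−0.42, edgeR adjusted p = 0.0216). With library size as the only scaling, 67.3% of all calls in Vehicle against Sham were higher, against 56.8% with TMM scaling, and the members called stayed at 18. The mice share replicate numbers across groups, so deviations from each gene's group mean of log2 CPM were correlated between mice of different groups. In these deviations same-numbered mice correlated at −0.322 to 0.114, and 1 of 12 such pairs was over 0.1. For 2 of 12 mice the highest correlation was with their own number. With the replicate block the calls were 18, 0 and 6, as without it. At this depth 17 members did not pass the low-count filter, and edgeR tested all 46 with no filter.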

Other observations

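Cxcl15, a chemokine of lung epithelium that is not among the 46 genes but stood in the list of other family genes, had 6, 6, 2 and 14 counts in Sham 1 to 4, 10, 10, 11 and 10 counts in Vehicle 1 to 4, and 0 counts in every LJP mouse. Sham was at least 9.93-fold and Vehicle at least 12.9-fold higher than LJP, with the LJP group at a floor of 3 counts. An exact two-sided permutation test on log2(CPM + 0.5) gave p = 0.0286 for LJP against each other group, the smallest it can give, and p = 0.343 between Vehicle and Sham. Scgb1a1, a secretory protein of airway epithelium that was looked up after these values were seen, had 93 to 113 counts in Sham, 79 to 123 in Vehicle and 0 in every LJP mouse.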
